A study of Rattus norvegicus with 16 samples.

Results

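The genes examined here encode the receptors through which glutamate, GABA, glycine and acetylcholine act on nerve cells. They were chosen by gene name, with earlier results of these data known. A probe set counted as a member where the platform annotation gave it 1 gene symbol beginning with Gria, Grik, Grin1, Grin2, Grin3, Grm, Gabr, Glra, Glrb or Chrn. This gave 77 probe sets for 53 genes, out of 8740 probe sets on the array and 4358 genes with a symbol of their own. RNA had been taken from the rat pontine nuclei, where the neurons that link the cerebral cortex to the cerebellum have their cell bodies, after a lesion of their axons at a distance. There were 9 lesion-side arrays, in which the axons had received saline, lysolecithin (a lipid that strips myelin) or a transection, each on days 4, 10 and 37. The controls were 6 arrays of the opposite, contralateral nuclei (each intervention on days 10 and 37) and 1 array labelled as a healthy control, so the contralateral controls came from operated animals and day 4 had none. Strain, age, sex and the number of animals behind an array are not given in the sources used here.

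Glutamate opens 3 kinds of ion channel, named AMPA, NMDA and kainate receptors after drugs that act on them, and it also acts on slower metabotropic receptors coupled to G proteins. GABA-A and glycine receptors are chloride channels that usually inhibit, and nicotinic receptors are cation channels opened by acetylcholine. Each channel is assembled from several subunits, so the set of subunits a neuron expresses sets how fast and how long its synapses act. Neurons of the pontine nuclei are driven by glutamate from the cerebral cortex and relay to the cerebellum as mossy fibres.

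Every condition was measured on 1 array, and the tests used the 3 days of an intervention as its replicates. SEs and p-values therefore reflect how arrays of unlike conditions vary, and the number of arrays limits the precision. The healthy array stood apart: it correlated with the others at r = 0.914 to 0.950 across probe sets, while correlations elsewhere reached 0.988. The ratio of 3′ to 5′ probe signals for beta-actin grows as RNA breaks down. It ran from 1.41 to 1.68 on the saline lesion arrays, 1.20 to 1.44 after lysolecithin, 1.07 to 1.42 after transection and 1.04 to 1.53 on the controls. The same ratio for GAPDH did not repeat this order, at 1.09 to 1.16, 1.03 to 1.16, 1.07 to 1.19 and 1.07 to 1.26. All 7 neuronal and all 6 oligodendrocyte markers on the array were called Present on at least 3 arrays. Of the markers of other brain regions on the array, 3 of 4 cerebellar ones (Calb1, Neurod1 and Pvalb) and 1 of 3 forebrain ones (Adora2a) reached 3 arrays. Gabra6 of cerebellar granule cells was Present on 2, and Neurod2, Drd1 and all 6 monoaminergic markers did not reach 3.

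Detection was uneven between receptor families. MAS5, the Affymetrix program that made the values, calls a probe set Present, Marginal or Absent by whether its matched probes outshine the mismatched ones, and an Absent call does not show that the RNA was missing. Of the 77 probe sets, 13 were called Present on all 16 arrays, 34 (44.2%, for 28 genes) on at least 3 and so entered the tests, 7 on 1 or 2 arrays, and 36 on none. Among all 8740 probe sets 50.5% reached 3 arrays. The number of member probe sets called Present per array ran from 21 (the healthy control and transection on day 10) to 33 (saline on day 10, lesion side).

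All 4 AMPA receptor genes (Gria1 to Gria4, which carry most fast excitation) and all 6 NMDA receptor genes on the array were tested, through 8 of 9 and 8 of 13 probe sets. Of 7 metabotropic genes 5 were tested, with Grm2, Grm3, Grm4 and Grm8 called Present on every array. Among kainate receptors Grik1 and Grik5 were Present on every array, and Grik2, Grik3 and Grik4 on none. Inhibitory receptors were seen through fewer subunits: Gabra2 and Gabra5 of 5 alpha genes, Gabrb2, Gabrg1 and Gabrd of 9 other GABA-A genes, and Glra1 and Glra2 of 3 glycine receptor genes. Nicotinic receptors were the least detected, with 3 of 9 neuronal genes (Chrna4, Chrna7, Chrnb4) and 1 of 5 muscle genes (Chrng) tested. Called Present on no array were 21 genes in all, among them Grm5, Gabra3, Gabra4, Gabrb1, Chrnb2 and the muscle subunits Chrna1, Chrnb1 and Chrne.

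**Figure D1:**
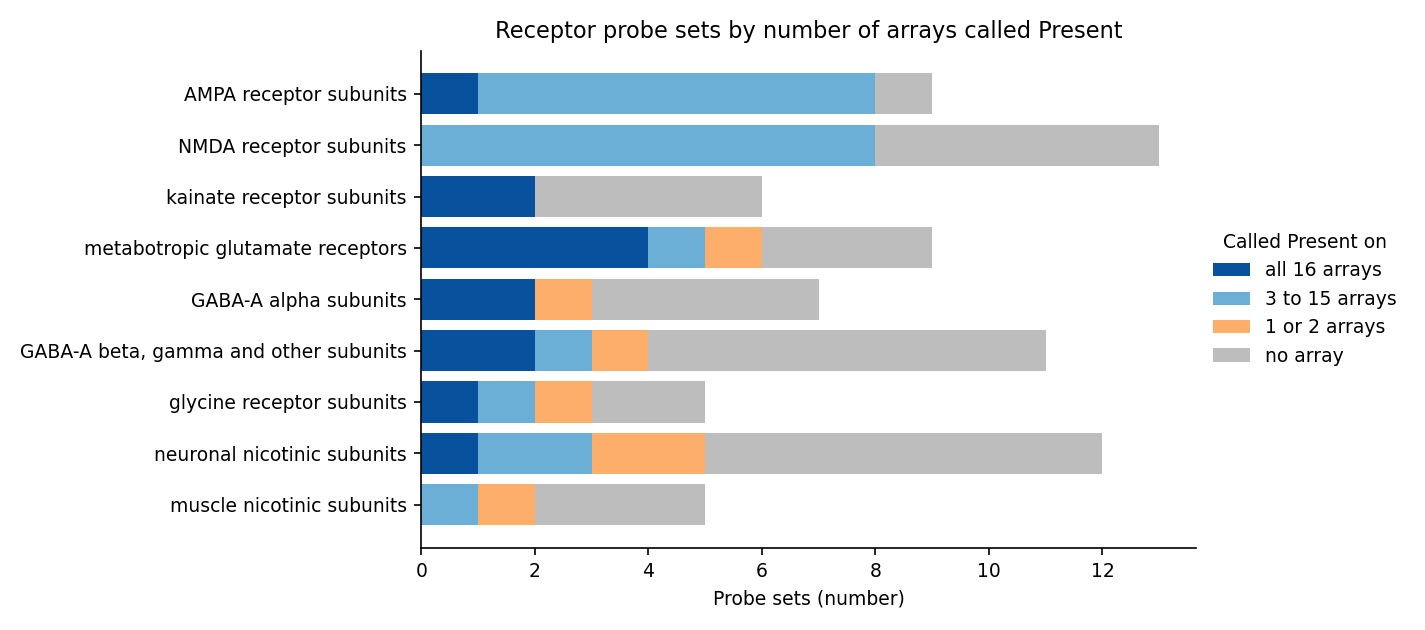
Number of receptor probe sets in each family (horizontal axis) by how many of the 16 arrays called them Present. AMPA probe sets reached 3 arrays in 8 of 9 cases, while 7 of 12 neuronal nicotinic probe sets were Present on no array.

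Members called Present on only 1 or 2 arrays were kept out of the tests. Gabra6 was Present on the lesion side after transection on day 37 (signal 186.0) and on the healthy control (338.5). Glra3 was Present on day 4 after lysolecithin (66.4) and after transection (43.3), and its 16 signals ran from 4.2 to 100.3. Chrnd was Present on the contralateral array of transection on day 37 alone (281.0), and the probe set D16817_at of Grm7 on saline day 10 of the lesion side alone (266.9). Second probe sets of Gabrb2 (X15467cds_at), Chrna7 (L31619_at) and Chrnb4 (J05232cds_s_at) were Present on 2, 1 and 1 arrays.

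Saline-injected, lysolecithin-treated and cut axons were compared on the lesion side to ask how the receptors differ with the kind of injury. No member passed the threshold, an adjusted p under 0.05 in limma, a linear model fitted to log2(signal + 16) of all 4413 tested probe sets. For transection against saline 0 of 34 members passed, where 0.725% of all probe sets did, and 12 had an unadjusted p under 0.05 (5 higher, 7 lower), where 16.9% of all probe sets did. For lysolecithin against saline 0 members passed (0.159% of all) and 8 had an unadjusted p under 0.05 (20.6% of all). For transection against lysolecithin 0 members passed (0.476% of all) and 5 had an unadjusted p under 0.05 (13.6% of all). The size of a difference, leaving out its sign, had a median of 0.30 over the members and 0.18 over all probe sets for transection against saline, 0.25 and 0.19 for lysolecithin against saline, and 0.14 and 0.15 between the 2 injuries. The signed medians of the members were -0.14, 0.03 and -0.06, beside 0.00, 0.02 and -0.00 over all probe sets. The 3 arrays of one intervention lay wholly apart from the 3 of the other for 9 of 34 members in transection against saline (15.1% of all probe sets), 12 in lysolecithin against saline (23.1%) and 5 between the injuries (16.2%). Because the first and second comparisons share the saline arrays, a member that was high or low on those arrays appears in both.

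**Figure D2:**
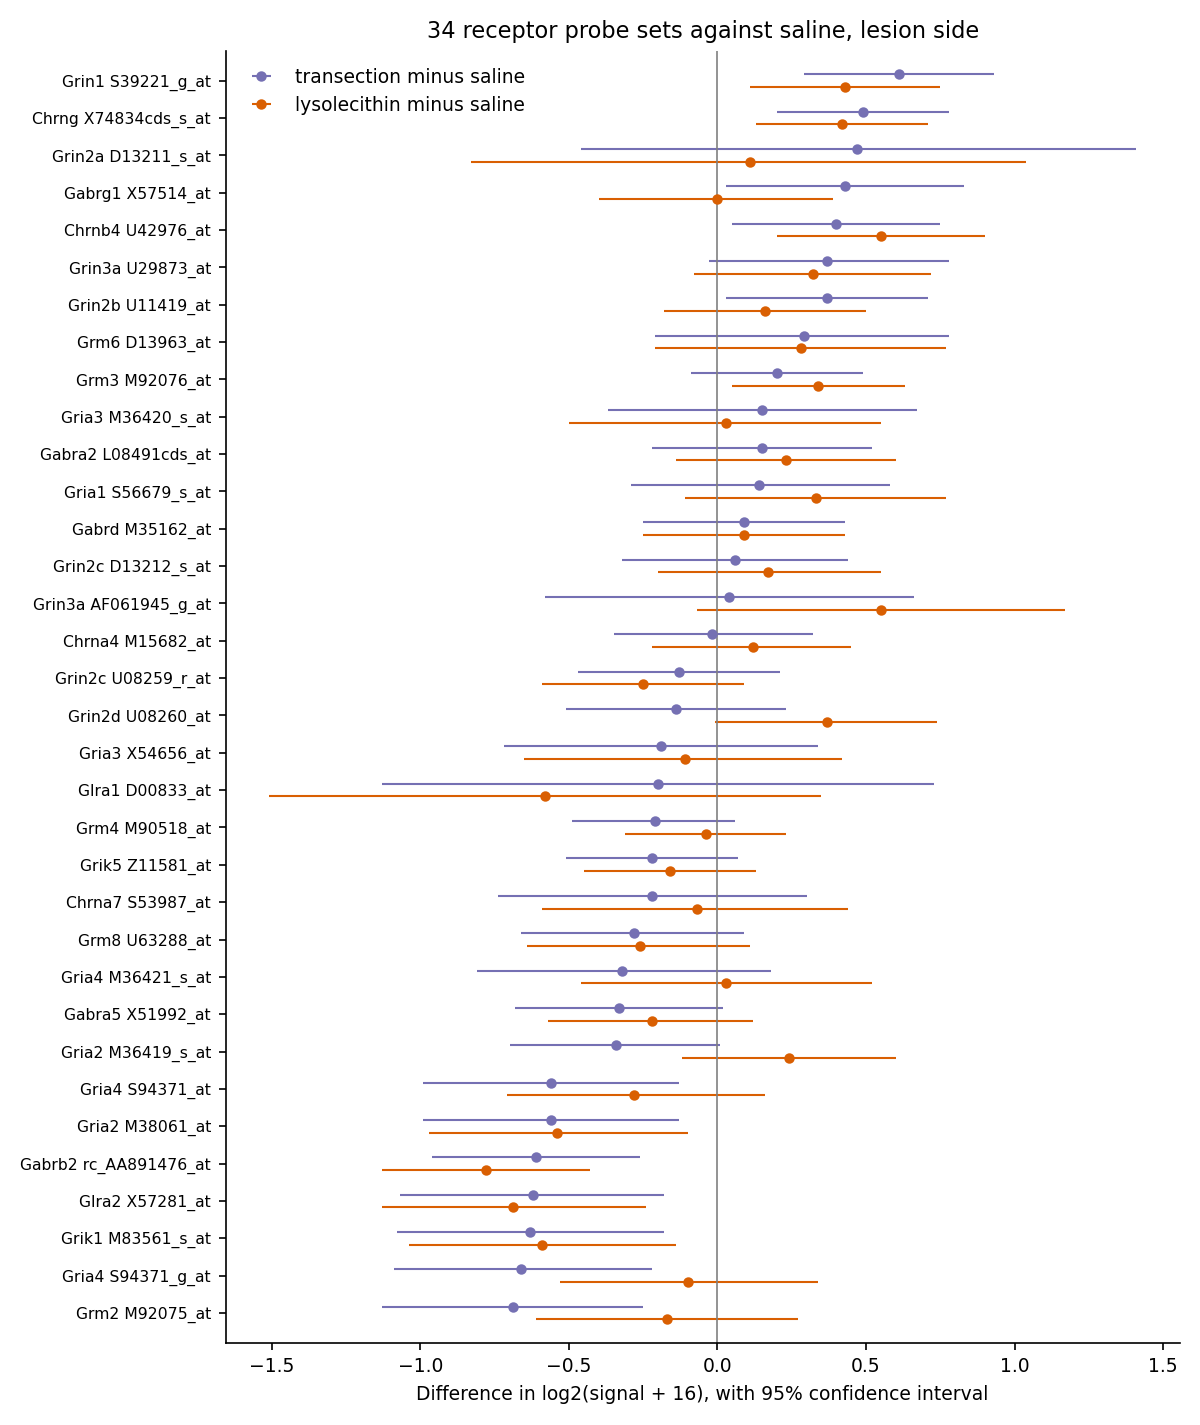
Difference in log2(signal + 16) on the lesion side for the 34 tested receptor probe sets, transection minus saline and lysolecithin minus saline, with 95% confidence intervals. Differences ran from -0.69 (Grm2) to 0.61 (Grin1) for transection and from -0.78 (Gabrb2) to 0.55 (Chrnb4 and Grin3a) for lysolecithin, and none passed after adjustment.

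Gabrb2, Grik1 and Glra2 were among the 5 members with the lowest differences from saline in both comparisons, and M38061_at of Gria2 among the 6 lowest. The GABA-A genes did not share the direction of Gabrb2 throughout: Gabra2 differed by 0.15 and 0.23 for transection and lysolecithin, and Gabrd by 0.09 and 0.09. Gabra5 did share it, at -0.33 for transection and below every saline array after lysolecithin. Grik5 was lower like Grik1, by -0.22 and -0.16. The 2 tested glycine receptor genes were lower in each comparison. Gabrb2 encodes the beta2 subunit found in most GABA-A receptors of the adult brain. Its probe set rc_AA891476_at read 3343.9, 3209.7 and 2325.9 on the saline arrays of days 4, 10 and 37, against 1759.2, 1815.5 and 1514.5 after lysolecithin and 2558.1, 1518.0 and 1805.0 after transection. The 7 controls ran from 1468.8 to 2798.7 with a median of 1915.6. All lysolecithin signals lay below all saline signals, while transection on day 4 overlapped with saline. The second probe set, X15467cds_at, Present on only 2 arrays and not tested, lay the other way without overlap, at 87.6, 64.9 and 95.6 after saline and 160.8, 121.9 and 155.7 after lysolecithin. On the log2(signal + 16) scale saline, lysolecithin and transection stood at 11.52 ± 0.29, 10.74 ± 0.14 and 10.91 ± 0.38 (SD, n = 3 each). The difference was -0.78 (SE 0.16, 1.72-fold lower, adjusted p = 0.0741) for lysolecithin and -0.61 (SE 0.16, 1.52-fold lower, adjusted p = 0.105) for transection. The lysolecithin difference passed in 3 alternative fits: with array weights (adjusted p = 0.0399), without the saline day 37 lesion array (-0.89, adjusted p = 0.0338) and without the transection day 10 lesion array (adjusted p = 0.0436). In bulk tissue, fewer cells of a type and less RNA per cell cannot be told apart. Pcp4 was the one listed marker of pontine excitatory neurons on the array. It ran from 9460 to 15400 after saline, 8010 to 9180 after lysolecithin and 7460 to 11100 after transection. Its log2 difference was -0.35 for transection against saline. The summed signal of 7 general neuronal markers ran, in the same order, from 58000 to 66600, 56000 to 60400 and 51400 to 60200. For transection against saline 3 of them were higher and 4 lower (median -0.08). The part of these markers in the receptor values was not tested.

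Grik1, a kainate receptor subunit, read 1180.9, 1080.9 and 710.2 on the saline arrays, 616.5, 682.4 and 616.6 after lysolecithin and 816.2, 450.1 and 645.9 after transection. Saline days 4 and 10 were the highest of all 16 arrays, and the 7 controls ran from 511.9 to 943.8. The log2 difference was -0.59 (SE 0.20, adjusted p = 0.15) for lysolecithin and -0.63 (SE 0.20, adjusted p = 0.166) for transection. Glra2, the alpha subunit of glycine receptors that is most used in the immature brain, showed the same order, with 539.1, 538.2 and 367.8 after saline. After lysolecithin it read 288.2, 282.6 and 293.7, below every saline and every control array, and after transection 377.9, 219.1 and 334.1. Its log2 differences were -0.69 (SE 0.20, adjusted p = 0.116) and -0.62 (SE 0.20, adjusted p = 0.172).

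Gria2 encodes the AMPA subunit that keeps calcium out of the channel. Its probe set M38061_at read 419.6, 444.3 and 298.7 after saline, 264.7, 248.2 and 262.9 after lysolecithin and 287.5, 196.7 and 287.9 after transection. Every saline array lay above all 6 arrays of the injuries, with log2 differences of -0.54 (adjusted p = 0.165) and -0.56 (adjusted p = 0.191), each with an SE of 0.20. The other probe set of the same gene, M36419_s_at, did not repeat the lysolecithin difference: it read 294.3, 229.7 and 342.1 after saline and 323.3, 339.9 and 357.0 after lysolecithin, a log2 difference of 0.24. Glra1, the adult glycine receptor subunit of the brainstem, differed by -0.58 for lysolecithin (SE 0.43, adjusted p = 0.457) and read 163.5, 185.3 and 31.2 there.

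**Figure D3:**
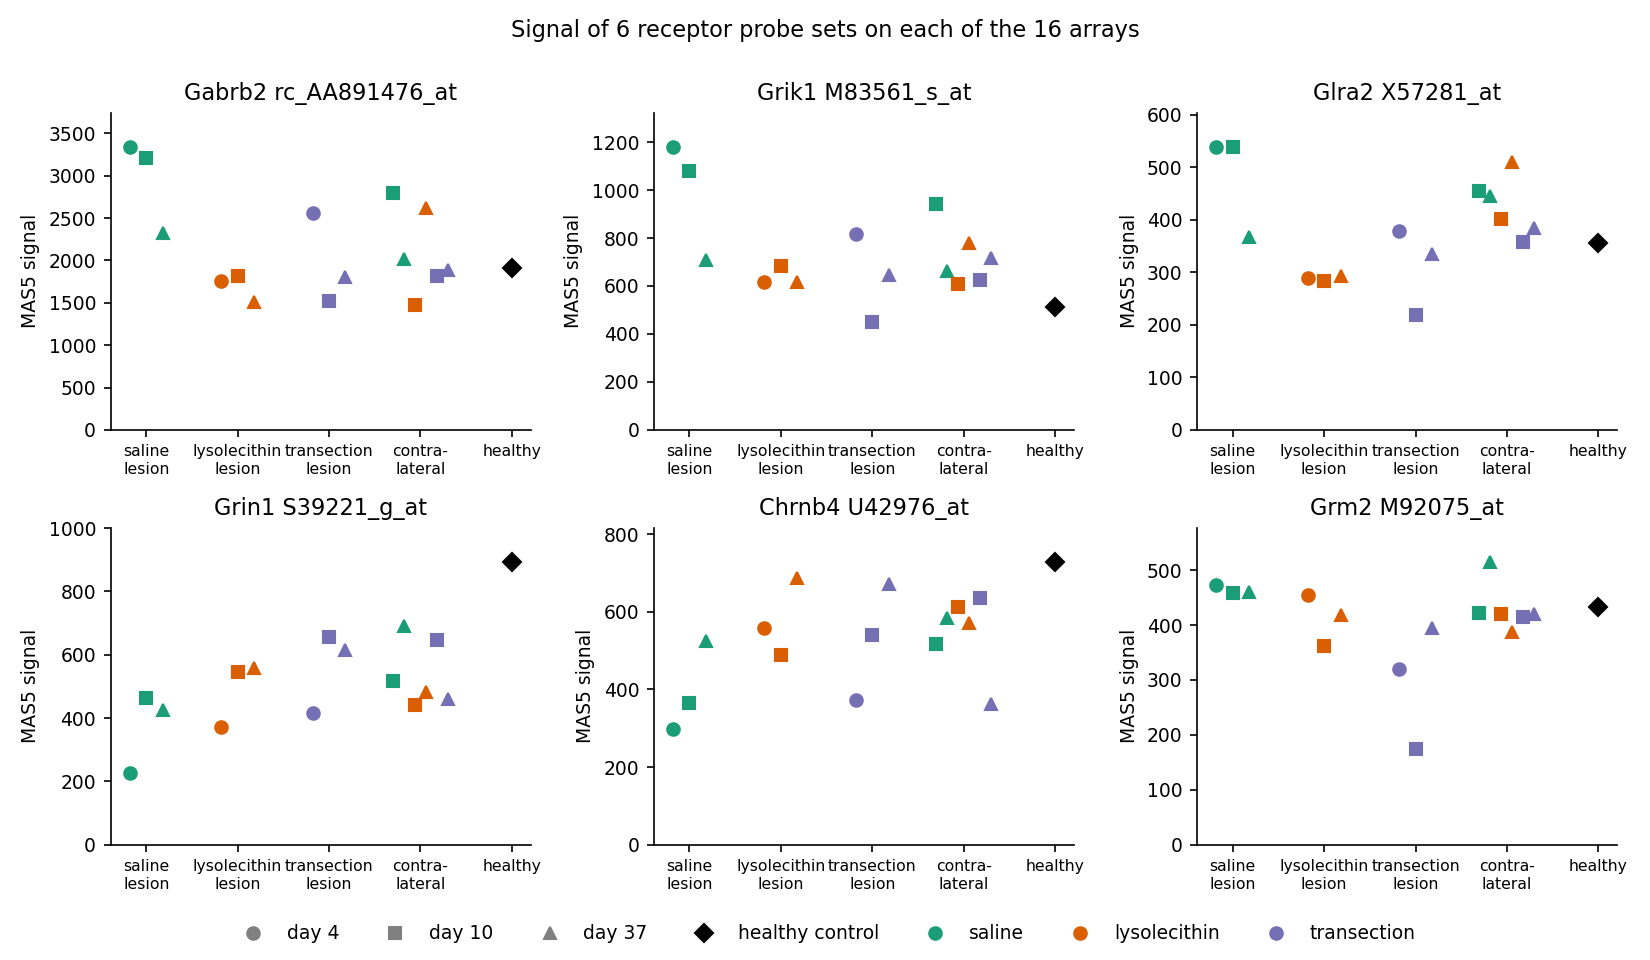
MAS5 signal (linear scale from 0) of 6 receptor probe sets on each of the 16 arrays, with colour for the intervention and symbol for the day. Gabrb2, Grik1 and Glra2 were highest on saline days 4 and 10 of the lesion side, Grin1 and Chrnb4 were lowest on saline day 4, and Grm2 was lowest after transection on day 10.

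Among the members with the highest differences from saline in both comparisons were Grin1, Chrnb4 and Chrng. Grin1 encodes the subunit that every NMDA receptor needs. Its probe set S39221_g_at read 226.0, 462.6 and 426.9 after saline, 372.2, 544.9 and 557.9 after lysolecithin and 415.4, 656.8 and 613.6 after transection, with controls from 440.1 to 894.2 and a median of 515.8. The injured arrays were above the saline array of the same day on all 3 days, but day 4 of either injury overlapped with saline days 10 and 37. The log2 difference was 0.61 (SE 0.15, 1.53-fold, adjusted p = 0.0897) for transection, the smallest adjusted p of any member in that comparison, and 0.43 (SE 0.15, adjusted p = 0.146) for lysolecithin. The saline value rests on day 4 in part: without that array the transection difference was 0.49 (adjusted p = 0.228). The other Grin1 probe sets, L19708_at and S39221_at, were Absent on all 16 arrays, were not tested and did not repeat the transection difference. L19708_at read 99.2, 58.3 and 108.5 after saline, 174.7, 125.8 and 182.2 after lysolecithin and 53.1, 75.5 and 67.4 after transection. For S39221_at the signals were 65.7, 96.4 and 79.4, then 133.2, 101.2 and 85.9, then 97.1, 79.4 and 62.3.

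Counting each gene by its brightest tested probe set, 5 of 6 NMDA genes were higher after transection than after saline (median log2 difference 0.37). After lysolecithin 6 of 6 were higher (median 0.25). Of all probe sets 50.6% and 53.1% were higher. An unadjusted p under 0.05 was reached by 2 and 1 of the genes, beside 16.9% and 20.6% of all probe sets. The counted probe sets of Grin2a, Grin2d and Grin3a were called Present on no transection array, and that of Grin3a on no lysolecithin array. Grin2c was counted by D13212_s_at. Its other probe set, U08259_r_at, read 344.1, 371.3 and 280.9 after lysolecithin, below the 397.8, 413.5 and 377.4 after saline without overlap. Grin2b, which slows the channel and prevails in young neurons, read 570.9, 580.0 and 536.6 after transection and 431.3, 523.2 and 356.2 after saline, with no overlap (0.37, SE 0.16, adjusted p = 0.262). The probe set U29873_at of Grin3a, a subunit that lowers calcium entry, differed by 0.37 for transection (SE 0.18, adjusted p = 0.326), and AF061945_g_at of the same gene by 0.55 for lysolecithin (SE 0.28, adjusted p = 0.285). Grin2d differed by 0.37 for lysolecithin (SE 0.17, adjusted p = 0.246) and Grin2a by 0.47 for transection (SE 0.43, adjusted p = 0.59). The sign of each turned under an alternative, to -0.43 for Grin2d with the beta-actin ratio as a covariate and to -0.15 for Grin2a in the series value table. The 4 AMPA genes gave the opposite balance, with 1 higher and 3 lower after transection (median -0.37) and likewise after lysolecithin (median -0.19). Their count depends on the probe set. The other probe sets of Gria2 (M36419_s_at) and Gria3 (M36420_s_at) had the opposite sign for lysolecithin, and that of Gria3 also for transection.

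Chrnb4, a beta subunit of neuronal nicotinic receptors, read 298.6, 365.2 and 525.4 after saline, 557.1, 487.9 and 685.7 after lysolecithin and 372.3, 539.5 and 671.4 after transection. Its log2 difference from saline was 0.55 (SE 0.16, 1.46-fold, adjusted p = 0.116) for lysolecithin and 0.40 (SE 0.16, adjusted p = 0.238) for transection. Chrng, the gamma subunit of the fetal muscle receptor, read 590.1, 670.0 and 785.3 after saline, 859.7, 909.3 and 973.2 after lysolecithin and 815.6, 1095.0 and 988.3 after transection, so that neither injury overlapped with saline. The differences were 0.42 (SE 0.13, adjusted p = 0.125) and 0.49 (SE 0.13, adjusted p = 0.11). Chrng was called Present on only 4 arrays and Marginal on 8, and the other 4 muscle subunits did not reach the tests. Of 7 skeletal muscle markers on the array 3 were tested (Acta1, Myh1 and Tnnc2), and their summed signal ran from 1210 to 1530 after saline, 1130 to 1310 after lysolecithin and 1340 to 1470 after transection. Their part in the Chrng value was not tested.

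Gabrg1, a GABA-A gamma subunit that astrocytes also use, read 740.3, 609.6 and 567.0 after transection, above the 513.6, 562.6 and 350.4 after lysolecithin on every array. Transection differed from saline by 0.43 (SE 0.18, adjusted p = 0.261). The difference between the injuries was also 0.43 (SE 0.18, adjusted p = 0.331), and saline on day 10 lay within the transection range. The summed signal of 6 astrocyte markers ran from 44000 to 44500 after saline, 44100 to 48400 after lysolecithin and 41900 to 45800 after transection. That of 6 tested microglia and macrophage markers, out of 9 on the array, ran from 2570 to 3530, 3590 to 7410 and 3780 to 4890. Taken one by one, 4 of 6 astrocyte markers were higher for transection against saline (median 0.34) and 4 of 6 lower for saline against controls (median -0.32). For microglia 6 of 6 were higher (median 0.37) and 5 of 6 lower (median -0.34). Their part in the receptor values was not tested.

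The beta-actin ratio and the receptor signals shared some of their extreme arrays. Saline day 4 had the highest ratio of the 16 arrays (1.68), the lowest Grin1 and Chrnb4 signals and the highest Gabrb2, Grik1 and Glra2 signals. The healthy control had the lowest ratio (1.04) and the highest Grin1 (894.2) and Chrnb4 (729.0) signals, while its Gabrb2 signal (1915.6) was the control median. Its GAPDH ratio, however, was the highest of the 16 arrays (1.26), and that of saline day 4 was 1.16. The array with the next highest beta-actin ratio was contralateral transection on day 37 (1.53). It read 1887.8 for Gabrb2, 715.2 for Grik1 and 383.8 for Glra2, near the medians of all 16 arrays (1900, 673 and 373). Its Chrnb4 signal of 363.1 was the lowest of the controls (median of all 16 arrays 548), and its Grin1 signal was 459.4 (median 499). With the log2 beta-actin ratio as a covariate, chosen after seeing the data, fewer members had an unadjusted p under 0.05. They numbered 2 instead of 12 for transection against saline and 1 instead of 8 for lysolecithin against saline. The matching share over all probe sets was not computed. Of all 4413 probe sets, 11 instead of 32 and 6 instead of 7 passed the adjusted threshold. The ratio itself differed between the interventions, so its effect and theirs cannot be fully told apart in this fit. What lowered the counts was not tested. With the covariate the Gabrb2 difference was 0.08 for transection and -0.33 for lysolecithin, that of Grik1 -0.11 and -0.25, and that of Chrnb4 -0.30 and 0.09. The Grin1 differences were larger, 0.95 (adjusted p = 0.753) and 0.65 (adjusted p = 0.656), and neither passed. The Grm2 difference after transection was -0.75, close to the -0.69 without the covariate.

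**Figure D4:**
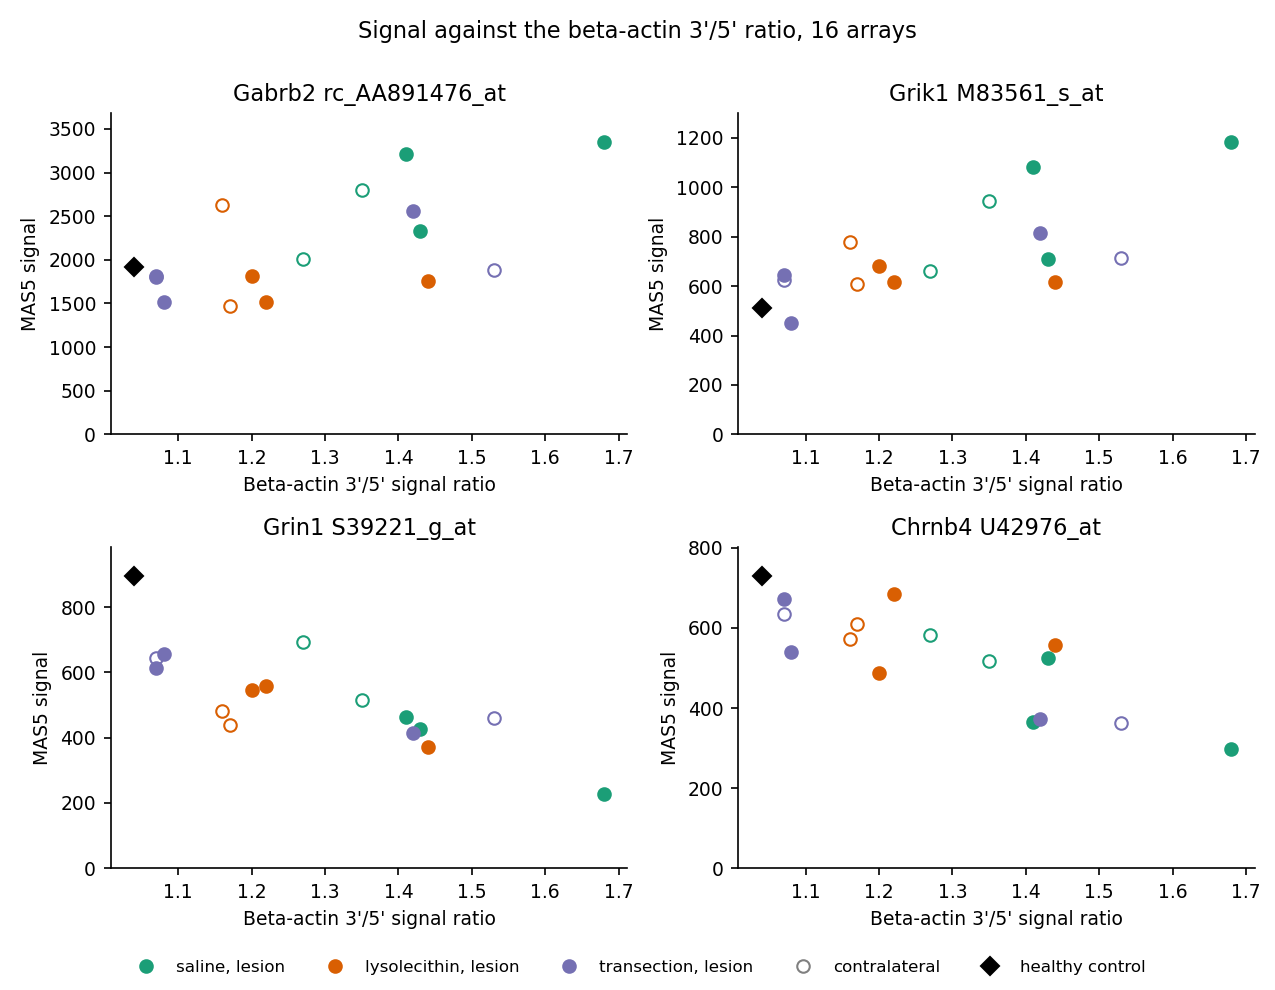
MAS5 signal of 4 receptor probe sets (vertical axes, from 0) against the beta-actin 3′/5′ signal ratio of the same array, 16 arrays. Saline day 4, with the highest ratio of 1.68, had the highest Gabrb2 and Grik1 and the lowest Grin1 and Chrnb4 signals.

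Because these genes sat together at the extremes of the saline arrays, the promoters of the 5 of them that the RefSeq table (build GRCr8) holds are given here. Each runs 5′ to 3′ on the gene's strand from 250 bases before to 50 bases after the annotated start, and capitals mark a match to the searched motifs. Gabrb2 lies at chr10:27439543-27439842 (plus strand), Grik1 at chr11:41056454-41056753 (minus), Glra2 at chrX:32651937-32652236 (plus), Grin1 at chr3:28528705-28529004 (minus) and Chrnb4 at chr8:64333060-64333359 (minus).
Gabrb2: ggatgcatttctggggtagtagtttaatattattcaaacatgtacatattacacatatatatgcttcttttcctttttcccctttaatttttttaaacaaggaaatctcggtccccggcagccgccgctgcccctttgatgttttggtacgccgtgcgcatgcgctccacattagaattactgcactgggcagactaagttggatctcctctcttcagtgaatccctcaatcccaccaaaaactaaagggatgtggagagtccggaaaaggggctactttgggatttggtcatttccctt
Grik1: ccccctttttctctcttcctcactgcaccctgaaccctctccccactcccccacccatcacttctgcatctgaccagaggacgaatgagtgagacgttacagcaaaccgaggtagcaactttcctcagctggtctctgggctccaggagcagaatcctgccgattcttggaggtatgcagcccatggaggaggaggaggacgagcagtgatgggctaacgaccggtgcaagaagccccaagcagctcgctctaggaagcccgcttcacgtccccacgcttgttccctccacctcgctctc
Glra2: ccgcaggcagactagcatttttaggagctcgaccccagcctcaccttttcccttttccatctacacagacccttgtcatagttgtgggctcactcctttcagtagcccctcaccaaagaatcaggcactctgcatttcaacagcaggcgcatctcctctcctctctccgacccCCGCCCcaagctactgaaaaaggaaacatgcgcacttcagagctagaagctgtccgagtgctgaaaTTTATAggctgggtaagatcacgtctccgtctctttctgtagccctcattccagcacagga
Grin1: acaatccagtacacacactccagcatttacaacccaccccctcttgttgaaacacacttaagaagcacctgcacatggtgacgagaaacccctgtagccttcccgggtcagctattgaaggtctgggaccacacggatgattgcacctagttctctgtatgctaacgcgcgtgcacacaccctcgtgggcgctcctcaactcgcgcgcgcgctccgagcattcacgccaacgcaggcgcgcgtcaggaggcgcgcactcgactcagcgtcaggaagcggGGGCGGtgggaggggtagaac
Chrnb4: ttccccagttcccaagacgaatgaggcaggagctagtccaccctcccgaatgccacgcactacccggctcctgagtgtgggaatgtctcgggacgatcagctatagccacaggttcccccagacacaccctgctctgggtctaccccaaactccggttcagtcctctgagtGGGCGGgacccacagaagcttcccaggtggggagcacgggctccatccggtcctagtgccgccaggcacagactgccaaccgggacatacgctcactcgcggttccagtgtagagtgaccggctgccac

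Both strands of each promoter were searched for AP-1 (TGANTCA), the cyclic AMP response element (TGACGTCA), the Sp1 box (GGGCGG) and the TATA box (TATAAA), and no matches overlapped in these 5 promoters. Grin1, Chrnb4 and Glra2 each held 1 Sp1 box, Glra2 also a TATA box, and Gabrb2 and Grik1 no match. Promoters were in the table for 18 of the 28 tested genes. Among these 18, 8 (44.4%) held an Sp1 box, beside 33.1% of all 33469 promoters, and 1 (5.56%) held a TATA box, beside 14.2%. AP-1 and the cyclic AMP element were in 0 of 18 windows, beside 7.33% and 1.83% of all. The TATA letters were added after the other results were seen, and a match here describes the letters only.

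Grm2 and the probe set S94371_g_at of Gria4 were among the 3 members with the lowest differences for transection against saline and against lysolecithin alike. Grm2 encodes a metabotropic receptor that dampens glutamate release. It read 319.9, 173.6 and 393.9 after transection, 472.2, 457.9 and 459.7 after saline and 454.1, 361.1 and 418.1 after lysolecithin. Transection day 10 was the lowest of the 16 arrays and its contralateral partner read 414.8. The log2 difference was -0.69 (SE 0.20, 1.62-fold lower, adjusted p = 0.131) against saline and -0.52 (SE 0.20, adjusted p = 0.292) against lysolecithin.

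Gria4, an AMPA subunit with fast kinetics, has 3 tested probe sets. S94371_g_at read 163.1, 134.5 and 136.0 after transection, 203.0, 296.2 and 218.2 after saline and 245.5, 210.6 and 205.1 after lysolecithin, with no overlap. Its log2 difference was -0.66 (SE 0.20, adjusted p = 0.143) against saline and -0.56 (SE 0.20, adjusted p = 0.246) against lysolecithin, although it was called Present on only 4 of the 16 arrays and on none of the transection arrays. S94371_at, Present on 15 arrays, differed by -0.56 and -0.28, and M36421_s_at by -0.32 and -0.35. All 3 probe sets of Gria4 therefore had the same sign in both comparisons.

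Other differences between the injuries lay in Gria2 and 2 NMDA subunits. The probe set M36419_s_at of Gria2 read 209.3, 197.8 and 261.8 after transection, below the 323.3, 339.9 and 357.0 after lysolecithin on every array (-0.58, SE 0.16, adjusted p = 0.186). For M38061_at of the same gene that difference was -0.03. Grin2d, an NMDA subunit with very slow closing, read 279.4, 317.6 and 385.5 after transection and 492.9, 448.3 and 463.5 after lysolecithin, with no overlap (-0.51, SE 0.17, adjusted p = 0.228). The probe set AF061945_g_at of Grin3a differed by -0.51 (SE 0.28, adjusted p = 0.445), but U29873_at of the same gene by 0.05. On the higher side after Gabrg1 came Glra1 (0.38), Grin2a (0.37), Grin2b (0.21), Grin1 (0.18) and Gabrb2 (0.18), with adjusted p of 0.598 or more.

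Each intervention was next set against the 7 control arrays to ask which receptors depart from uninjured nuclei. These 3 comparisons share the controls, and their errors include differences between days. For transection 0 of 34 members passed (0.0227% of all probe sets), with 5 at an unadjusted p under 0.05, all lower (11% of all). For lysolecithin 0 passed (0% of all), with 3 at an unadjusted p under 0.05 (4.65% of all). For saline 0 passed (0% of all), with 11 at an unadjusted p under 0.05, 3 higher and 8 lower (12.4% of all). After transection 27 of 34 members were lower than the controls (median -0.13, beside -0.01 over all probe sets), after lysolecithin 22 (median -0.07) and after saline 18 (median -0.01). Of all probe sets 49.1%, 51.4% and 50.4% were higher than the controls. The 34 members stand for 28 genes, so they are not independent of each other. The size of a difference had a median of 0.15, 0.11 and 0.31 over the members and 0.15, 0.12 and 0.17 over all probe sets.

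Chrna4, the main alpha subunit of brain nicotinic receptors, was low on the lesion side whatever the intervention. It read 313.1, 322.4 and 322.1 after transection, 386.5, 305.5 and 368.1 after lysolecithin and 316.1, 295.8 and 360.4 after saline. The controls ran from 373.5 to 516.8 with a median of 425.2, so that of the 9 lesion arrays only lysolecithin day 4 reached into the control range. It was called Present on 8 arrays, 5 of them on the lesion side, and Absent on all 3 transection arrays. The log2 difference from the controls was -0.44 (SE 0.13, adjusted p = 0.232) for transection, -0.31 (SE 0.13, adjusted p = 0.972) for lysolecithin and -0.43 (SE 0.13, adjusted p = 0.329) for saline. With the contralateral arrays alone as controls the values were -0.43, -0.29 and -0.41.

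After transection Grm2 differed from the controls by -0.58 (SE 0.17, adjusted p = 0.232). It passed without the transection day 37 array (-0.82, adjusted p = 0.029), and without the transection day 10 array it was -0.26 (adjusted p = 0.668). Grin2d differed by -0.55 (SE 0.18, adjusted p = 0.257), with control signals from 356.3 to 647.2. Glra2 lay below the controls after transection (-0.43, SE 0.17, adjusted p = 0.36) and after lysolecithin (-0.49, SE 0.17, adjusted p = 0.972), but not after saline (0.20). AF061945_g_at of Grin3a differed by -0.39 after transection (adjusted p = 0.582). The highest differences after transection were those of Gabrg1 (0.37, SE 0.18, adjusted p = 0.471), Grin2a (0.33), Glra1 (0.15), M36420_s_at of Gria3 (0.15) and Chrng (0.14). After lysolecithin Grin2b stood at -0.34, Gabrb2 at -0.26 and Glra1 at -0.24, and at the upper end S94371_g_at of Gria4 at 0.33, M36419_s_at of Gria2 at 0.26, Grm3 at 0.20, S94371_at of Gria4 at 0.15 and AF061945_g_at of Grin3a at 0.13, all with an adjusted p of 0.972. Without the healthy array both of those Gria4 values turned to -0.07 and -0.04.

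The same saline arrays entered the comparison with the controls, and no member passed there. Grin1 differed by -0.66 (SE 0.24, 1.58-fold lower, adjusted p = 0.378), Chrnb4 by -0.53 (SE 0.21, adjusted p = 0.378) and Grin2b by -0.50 (SE 0.13, adjusted p = 0.299). Counting each gene by its brightest probe set, 6 of 6 NMDA genes were lower than the controls after saline (median -0.44). Of these, 4 had an unadjusted p under 0.05, beside 12.4% of all probe sets. The counted probe sets of Grin2a and Grin3a were each called Present on only 3 of the 16 arrays. Of all probe sets 50.4% were higher than the controls. The second probe set of Grin2c, U08259_r_at, lay the other way, with a mean log2 signal of 8.69 after saline and 8.54 on the controls. Gabrb2 differed by 0.52 (SE 0.19, adjusted p = 0.378), Grik1 by 0.50 (SE 0.19, adjusted p = 0.378) and the probe set M38061_at of Gria2 by 0.44 (SE 0.19, adjusted p = 0.379). U29873_at of Grin3a differed by -0.47 (SE 0.16, adjusted p = 0.372), and S94371_g_at and S94371_at of Gria4 by 0.43 and 0.42 (adjusted p = 0.68 and 0.514). The number of members with an unadjusted p under 0.05 was 10 without the healthy array and 1 with the beta-actin ratio as a covariate. The matching shares over all probe sets were not computed for these fits. With that covariate Grin1 stood at -0.20, Chrnb4 at -0.09, Gabrb2 at 0.30 and Grin2b at -0.42, each with an adjusted p of 0.998.

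The 6 pairs of sides on days 10 and 37 compared the lesioned nuclei with the opposite nuclei of the same condition. No member passed (0% of all probe sets), and 3 had an unadjusted p under 0.05, all lower on the lesion side (4.96% of all). The members' median was -0.07, beside -0.00 over all probe sets, with 23 of 34 members lower. Of all probe sets 49.5% were higher on the lesion side. Chrna4, Grin2b and the probe set S94371_g_at of Gria4 were lower on the lesion side in 6 of 6 pairs (8.82% of members, beside 1.4% of all probe sets), and 0 members were higher in 6 of 6 pairs (1.9% of all). S94371_g_at was Present on only 4 arrays, and differed by -0.02 and -0.06 in the day 37 pairs of lysolecithin and transection. The other tested probe sets of Gria4 did not repeat it: S94371_at was lower in 3 pairs and higher in 3, and M36421_s_at lower in 4.

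For Chrna4 the log2 difference between the sides was -0.35 and -0.21 after saline on days 10 and 37, -0.70 and -0.20 after lysolecithin and -0.65 and -0.20 after transection. In each intervention the day 10 pair was the further apart. The fitted difference was -0.39 (SE 0.11, 1.31-fold lower, adjusted p = 0.914). Grin2b gave -0.34 and -0.79 after saline, -0.11 and -0.24 after lysolecithin and -0.24 and -0.03 after transection (fitted -0.29, SE 0.11, adjusted p = 0.945). Glra2 was lower in 5 pairs, with saline day 10 (0.23) as the exception (fitted -0.36, SE 0.13, adjusted p = 0.945). Grm2 differed by -1.18 in the transection day 10 pair and by no more than 0.21 in size in the other 5 (fitted -0.24). Grin2d had a fitted difference of -0.30, and at the upper end stood Grin2a (0.38), Grm3 (0.19), Grik5 (0.15), Glra1 (0.08) and Chrng (0.07), none with an adjusted p under 0.945. Gabrb2 was higher on the lesion side in both saline pairs (0.20 and 0.21) and in the lysolecithin day 10 pair (0.30), and lower in the other 3. Grik1 was higher in the same 3 pairs, by 0.19, 0.10 and 0.17.

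The interventions were also compared through these side differences, on days 10 and 37. The saline arrays of both sides are shared by the comparisons, and no member passed. For lysolecithin against saline Gabrb2 stood at -0.44 (SE 0.34), Grik1 at -0.23 (SE 0.27) and M38061_at of Gria2 at -0.27 (SE 0.25), each over 1.5 times smaller in size than on the lesion side alone. Chrnb4 was likewise smaller at 0.29 (SE 0.37), while Glra2 stood at -0.61 (SE 0.36) and Grin1 at 0.66 (SE 0.27). The values for the lesion side alone also take in day 4, so the sets of arrays differ. For Chrnb4 the lesion-side difference was 0.87 on day 4, 0.40 on day 10 and 0.37 on day 37. The probe set M36420_s_at of Gria3 stood at 1.44 (SE 0.33, adjusted p = 1), where its difference on the lesion side alone was 0.03. For transection against saline Gabrb2 stood at -0.36 (SE 0.34), Grik1 at -0.45 (SE 0.27), Grm2 at -0.61 (SE 0.38), Grin1 at 0.63 (SE 0.27) and Chrnb4 at 0.63 (SE 0.37), all with an adjusted p of 0.998.

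**Figure D5:**
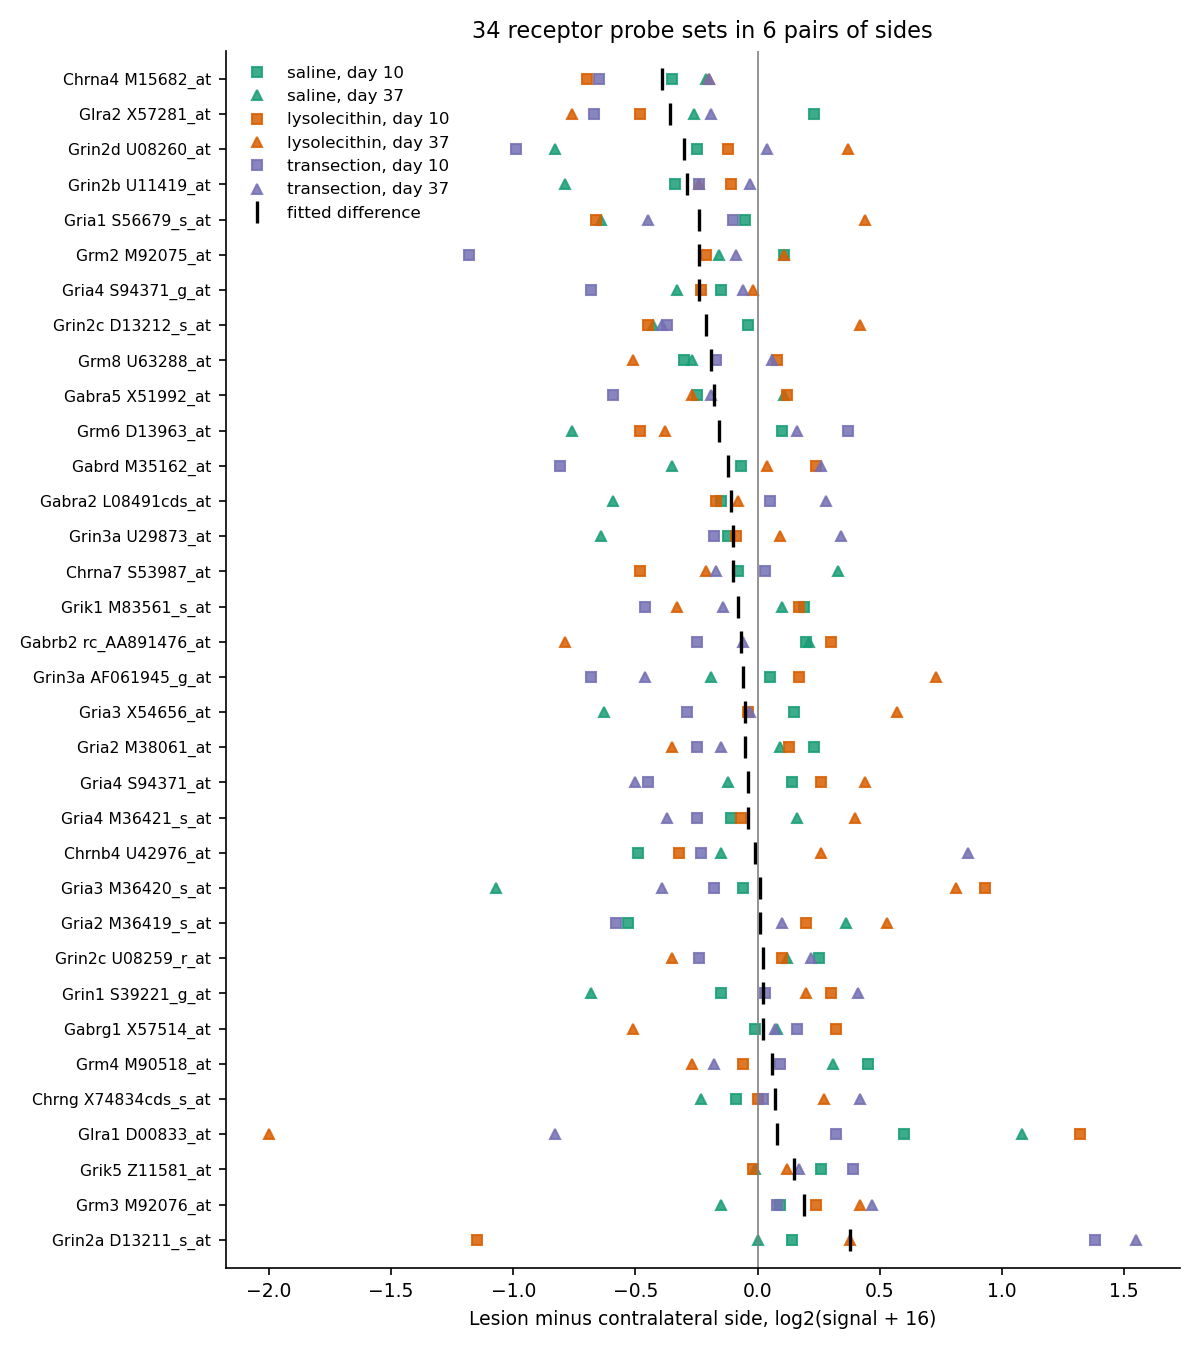
Lesion minus contralateral difference in log2(signal + 16) for the 34 tested receptor probe sets in 6 pairs, with the fitted difference as a bar. Chrna4, Grin2b and S94371_g_at of Gria4 lie below 0 in all 6 pairs, and none of the fitted differences passed after adjustment. S94371_at and M36421_s_at of Gria4 lie below 0 in 3 and 4 pairs.

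Day by day on the lesion side, the NMDA subunit Grin1 again led. No member passed for day 10 against day 4 (0.0453% of all probe sets), day 37 against day 4 (0.0227%) or day 37 against day 10 (0%). The members with an unadjusted p under 0.05 numbered 2, 4 and 3, beside 13.2%, 16.4% and 7.84% of all probe sets. Grin1 was above its day 4 signal in each intervention, by 0.72 on day 10 (SE 0.15, 1.65-fold, adjusted p = 0.159) and 0.66 on day 37 (SE 0.15, adjusted p = 0.147). Chrnb4 was higher on day 37 than on day 4 in each intervention (0.63, SE 0.16, 1.55-fold, adjusted p = 0.147). Gabrb2 was lower on day 37 than on day 4 in each intervention (-0.41, SE 0.16, adjusted p = 0.239). Grm3, a metabotropic receptor found on glia as well as neurons, was higher on both later days than on day 4 (0.35 and 0.37, SE 0.13 each, adjusted p = 0.306 and 0.212). The lowest differences for day 10 against day 4 were those of Grm2 (-0.40), Grik1 (-0.27), Glra2 (-0.26), Gabrb2 (-0.25) and Chrna7 (-0.22), and further high ones those of U29873_at and AF061945_g_at of Grin3a (0.38 and 0.35) and Gabra2 (0.31). For day 37 against day 4, Glra1 (-0.59), Grik1 (-0.35), Gabrg1 (-0.26) and Glra2 (-0.23) were low and Grin2a (0.58) and U29873_at of Grin3a (0.31) high. Between days 37 and 10 the extremes were Glra1 (-0.77), Gabrg1 (-0.44), Grin2b (-0.29), Grm6 (-0.22) and Gabrb2 (-0.16) against Grin2a (0.54), Grm2 (0.44), Chrnb4 (0.43), M36419_s_at of Gria2 (0.33) and S94371_at of Gria4 (0.28). These differences had an adjusted p of 0.404 or more. On day 4 the beta-actin ratio was 1.42 to 1.68, and on days 10 and 37 it was 1.07 to 1.43. Its part in the day values was not tested.

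Of the remaining members, some lay apart from saline without overlap and others varied widely or disagreed between probe sets. Gria1 ran from 129.7 to 292.6 and its lysolecithin arrays (160.7, 178.8 and 203.0) lay above saline (140.6, 129.7 and 150.7), a difference of 0.33. The 2 probe sets of Gria3 gave 0.15 and -0.19 for transection against saline, and those of Grin2c 0.06 and -0.13. Grin2a was Present on 3 arrays, with signals from 25.0 to 208.6 and an SE of 0.43 against saline.

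Grm4 ran from 1387.2 to 2439.5 and Grik5 from 897.6 to 2133.8, both highest on the healthy control. Grm8 read 450.4, 447.3 and 425.6 after saline, above all 6 arrays of the injuries, which ran from 299.3 to 412.3 (-0.28 for transection and -0.26 for lysolecithin). Grm6, best known from retinal bipolar cells, was Present on 4 arrays and was above saline on all arrays of either injury, by 0.29 and 0.28. Gabra5, the alpha subunit of receptors outside synapses, read 609.5, 391.0 and 550.8 after transection and 604.9, 649.8 and 678.8 after saline (-0.33). After lysolecithin it read 570.2, 537.0 and 542.2, below saline without overlap. Chrna7 differed from saline by -0.22 and -0.07 and Chrna4 by -0.02 and 0.12, so that of the 3 tested neuronal nicotinic genes 1 was higher after transection and 2 after lysolecithin. The healthy array was the highest of the 16 for 9 of the 34 members (26.5%, beside 18.4% of all probe sets), and saline day 4 the lowest for 9 (26.5%, beside 14.8%).

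Genes that anchor receptors, make or clear their transmitters, or encode related receptors were counted beside the members. Of 37 listed anchoring and trafficking genes 13 were tested, and 0 passed in any of the 10 comparisons. For transection against saline 6 were higher and 7 lower, with a median of -0.00. Of 27 genes for transmitter synthesis and transport 13 were tested and 0 passed. The nearest to the threshold was Slc1a2, the main astrocyte glutamate transporter and one of the astrocyte markers summed above, at 0.95 for lysolecithin against saline (SE 0.17, 1.93-fold, adjusted p = 0.0525). Against the controls it was -1.03 after saline (SE 0.19, adjusted p = 0.0721). Slc12a5, the chloride exporter that makes GABA inhibitory, differed by -0.73 for transection against saline (SE 0.17, adjusted p = 0.0897). Of 18 related receptors outside the name rule 10 were tested and 0 passed, with 5 higher and 5 lower for transection against saline.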

How the data were processed

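Total RNA of the pontine nuclei, extracted with Trizol, had been hybridised as biotin-labelled cRNA to 16 Affymetrix rat arrays, 1 per condition. Signals deposited by the authors are intensities on a linear scale, 1 per probe set, made with MAS5 per the submitters' processing notes, which give no version. Detection calls come with a p-value for each probe set per the file headers, and these calls were used unaltered. A value table for 7773 probe sets, also deposited, looks like log2 values, but its scale and centring are not stated. Among bright probe sets, after subtracting each one's mean, its columns correlated with their own array at r = 0.814 to 0.968 and with other arrays at no more than 0.495. Its medians were 8.36 to 8.40, and it served as an alternative source.

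Gene names came from the platform annotation, which gave 1 symbol to 6283 probe sets, several to 280 and none to 2177, after 59 control probe sets had been left out. Signals became log2(signal + 16). Those with 3 or more Present calls among the 16 arrays entered limma 3.58.1 in R 4.3.3 (moderated statistics with an intensity trend), with p-values adjusted by Benjamini and Hochberg's method over all 4413 probe sets and a threshold of 0.05. Comparisons between interventions and between days used the 9 lesion arrays with intervention and day as terms, those with controls all 16 arrays in 4 groups, and that of the sides 6 pairs with the pair as a block. The fit was tested on simulated data. Descriptions and figures were made in Python 3.11.15 (matplotlib 3.10.9, numpy 2.4.6, pandas 2.3.3).

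The rule for named genes took the 5 highest and 5 lowest members of each comparison, any tested member with its signals, and members Present on 1 or 2 arrays. Other differences given for tested members were chosen after their values were seen. Gene counts by family used the brightest probe set. The members and lists were chosen with earlier results of these data known. Alternatives changed the pseudocount (1 or 64), the detection filter (8 arrays or none), the normalization (quantile), the trend, array weights, the day or intervention term, the source table and the control set, and left out each array in turn. The beta-actin covariate was added after seeing the data. The fit of transection and lysolecithin against saline was also run as a difference of side differences on days 10 and 37.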

Additional observations from a re-analysis of the deposited data

Results flagged for a closer look

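Among the 7 controls the probe set S94371_g_at of Gria4 was far below the others on the healthy array, at 19.3, where the 6 contralateral arrays ran from 143 to 330. The related probe set S94371_at was also lowest there, at 130.1, while M36421_s_at of the same gene read 229.8. Among the same controls Grm2 was above the others on the contralateral array of saline day 37, at 515.5, where the rest ran from 387 to 432. All 34 tested members were screened in this way, and chance alone marks about 1 in 20 groups. The share over all probe sets was not computed.

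The tests left out members called Present on fewer than 3 arrays, and 3 of these were Present on the lesion side and on no control array. Grm7 (D16817_at) was Present on 1 lesion array, saline day 10, and its control signals ran from 267 to 382. Glra3 was Present on 2 lesion arrays, lysolecithin day 4 and transection day 4, with control signals from 5.7 to 100. The second probe set of Gabrb2 (X15467cds_at) was Present on 2 lesion arrays, saline day 37 and lysolecithin day 37, with control signals from 89.8 to 160. In each case the control signals reached as high as, or higher than, at least one of the lesion signals called Present.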

How the results depend on the processing

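With 1 array per condition no value has a repeat of its own condition, and dim probe sets lie near background. Of 213 recounts of called members over the 10 comparisons, 209 gave 0 and 4 gave 1. For lysolecithin against saline the count was 1 (Gabrb2) with array weights, and 0 to 1 with 1 array left out: 1 without the saline day 37 or the transection day 10 lesion array. For transection against controls it was 0 to 1 with 1 array left out: 1 (Grm2) without the transection day 37 lesion array. In the other 8 comparisons each such count was 0. Dropping the pair block from the side comparison left 0 members called. The paired comparison of interventions, through side differences, also called 0 members. Calls among all probe sets were less stable: over the alternatives they ran from 0 to 56 (32 as reported) for transection against saline, 0 to 95 (7) for lysolecithin against saline, 0 to 31 (21) for transection against lysolecithin, 0 to 64 (1) for transection against controls, 0 to 4 (0) for saline against controls, and 0 to 5 (2), 0 to 21 (1) and 0 to 17 (0) for day 10 against 4, day 37 against 4 and day 37 against 10. The counts of 56 and 95 came without the saline day 37 lesion array, and that of 64 without the transection day 37 lesion array. Of 2101 recomputed differences of named members 33 changed sign, none of which had passed, and the cause was not tested. With the beta-actin covariate Gabrb2 became 0.08 and Chrnb4 -0.30 for transection against saline, Grin2d -0.43 for lysolecithin against saline and S94371_at of Gria4 -0.01 for saline against controls. In the series value table Grin2a became -0.15 for transection against saline and -0.01 against controls, and Gabrb2 0.01 for day 37 against day 10. From side differences Grin1 became -0.04 for transection against lysolecithin. With the contralateral arrays alone, S94371_at and S94371_g_at of Gria4 became -0.04 and -0.07 for lysolecithin against controls. With 1 array left out, Glra1 ran from -1.06 to 0.09 for lysolecithin against saline, -0.28 to 0.72 for transection against lysolecithin, -0.01 to 0.38 for transection against controls, -0.17 to 0.50 between sides and -1.26 to 0.07 for day 37 against day 4. Grin2a ran from -0.28 to 0.79 for transection against lysolecithin and -0.11 to 1.06 for day 37 against day 10, and M36420_s_at of Gria3 from -0.05 to 0.28 for transection against controls. S94371_at and S94371_g_at of Gria4 ran from -0.04 to 0.28 and -0.07 to 0.48 for lysolecithin against controls, and Chrng from -0.00 to 0.13 between sides. For day 10 against day 4 AF061945_g_at of Grin3a ran from -0.05 to 0.66, Chrna7 from -0.48 to 0.02 and Grik1 from -0.46 to 0.01.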
